A study of Gallus gallus with 12 samples.

Results

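The left epithelium of the chicken dorsal mesentery was set against the other 3 compartments of that tissue, array by array. A probe set is the group of short oligonucleotides that reads 1 transcript on an Affymetrix array. A chicken probe set was a member if its lowest left epithelium array exceeded the highest of the other 9 arrays, or if its highest left epithelium array lay below the lowest of the other 9, on the scale log2(signal + 16). By this rule 959 of 37693 chicken probe sets (2.54%) were members, 427 above all 9 other arrays (1.13%) and 532 below them (1.41%). The members were thus chosen by the signals of all 12 arrays in this very contrast, so every difference between left epithelium and another compartment is given here as a description, with no test.

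All embryos were White Leghorn chickens, untreated and without a genetic change named in the labels, incubated at 38 °C and harvested at Hamburger-Hamilton stage 21, at about day 3.5. The groups were left epithelium, left mesenchyme, right epithelium and right mesenchyme, with 3 arrays each. Compartments were cut by laser from frozen sections of 8 µm, 1939 cut sections in the series, and those of 1 compartment and 1 biological experiment were pooled for 1 array, after amplification of the RNA with a NuGEN WT-Ovation Pico kit and labelling from 5 ng. Each of the 3 biological experiments gave all 4 compartments, so n = 3 throughout. The sources used here give neither the number of embryos in a pool nor the way the borders were drawn.

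The dorsal mesentery is the double sheet of splanchnic mesoderm that carries the embryonic gut. Its outer surface on each side is a coelomic epithelium, a proliferating layer that rests on a basement membrane and releases cells into the mesenchyme below it. At about this stage the left side becomes compact and the right side expands, which tilts the gut tube.

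The label was checked against markers of coelomic epithelium, such as WT1, EPCAM, keratins and podocalyxin. The summed signal of the 18 such genes on the array was 49406 to 53881 in left epithelium, against 32479 to 34395 in left mesenchyme, 56394 to 61075 in right epithelium and 37643 to 39469 in right mesenchyme. Both epithelia therefore lay above both mesenchymes, without overlap. No marker of the list was at or below the floor on every array of the series, but single compartments were not checked for this. The floor of an array was the 95th percentile of 30 bacterial control probe sets on it. It was 20.3 to 25.2 signal units in left epithelium and 23.2 to 34.4 on the other 9 arrays, so the left epithelium arrays tended to have the lower floor. For 20 mesenchyme markers the sum was 22833 to 25252 in left epithelium, against 26735 to 29355 in left mesenchyme, 30069 to 30462 in right epithelium and 32152 to 34916 in right mesenchyme. Left epithelium was the lowest of the 4, yet these markers were far from absent in it, with FOXF1 at or below the floor in each compartment. Right epithelium lay above left mesenchyme, so this sum did not separate both epithelia from both mesenchymes. In pooled tissue of this kind fewer cells of a type and less RNA per cell cannot be told apart.

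Pairwise correlations of the 12 arrays lay between 0.945 and 0.968. The median signal of 7 globin probe sets was 10889, 3420 and 2651 on left epithelium 1, 2 and 3, against 7826 to 12937 on the other 9 arrays, so that 2 of the 3 left epithelium arrays carried less globin signal than any other array. The 3′ minus 5′ signal of GAPDH, a gauge of RNA integrity, was 1.23 to 1.34 log2 in left epithelium, within the 0.946 to 1.58 of the other 9. For actin it was 1.27 to 1.67 log2, within 1.05 to 1.87. The part of these differences in the membership of any gene was not tested.

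The members differed modestly in most cases. Among those above all 9 other arrays, the median difference of left epithelium from the mean of the other 3 compartments was 0.67 log2, with quartiles of 0.44 and 0.94, and 91 of 427 differed at least 2-fold. Among those below, the median was -0.79 log2, with quartiles of -0.55 and -1.11, and 163 of 532 differed at least 2-fold. The distance between left epithelium and the nearest other array was small for most members, with a median of 0.09 log2 for the higher and 0.11 log2 for the lower ones, and 20 higher and 47 lower members kept a distance of 0.5 log2 or more. At the edge of the rule DTNA, with a lowest left epithelium signal of 1142.08 against a highest other signal of 1142.04, was inside, followed by MYBL2 and DRG2, while DCK2, PSMA7 and SDC2 were just outside. On the lower side STARD13, with a highest left epithelium signal of 286.06 against a lowest other signal of 286.21, was inside with MBNL2 and GMDS, and FAM35A, OSTF1 and SPAG9 were just outside. A rule over fewer arrays is easier to meet, and without left epithelium 1, 2 or 3 there were 911, 991 and 1061 higher and 1445, 1125 and 1266 lower members. Without both right mesenchyme 3 and right epithelium 3 there were 640 higher and 833 lower ones.

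The 427 higher members stood for 326 named genes, with 69 probe sets lacking a single symbol, and the 532 lower ones for 344 named genes, with 147 such probe sets. No gene had members in both directions, and 26 genes on the higher and 32 on the lower side were read by 2 or more member probe sets. A filter on low values, a mean signal above 47.4 over all arrays, was passed by 371 of the 427 and 393 of the 532, which are 1.61% and 1.70% of the chicken probe sets that passed it. Of the higher members 410 were above the floor on all 3 left epithelium arrays, and of the lower members 400 were above it on all 9 other arrays. The remaining members were dim even where they were brighter. On the dimmer side, 24 higher members were at or below the floor on all 9 other arrays, and 122 lower members on all 3 left epithelium arrays. These counts rest on unequal numbers of arrays. The part of the lower floor of left epithelium in the lower members was not tested.

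The 2 largest differences among the named higher members belonged to genes of secreted signals. SST1, which encodes a somatostatin, a small inhibitory peptide hormone, had signals of 3522, 3507 and 1871 on the left epithelium arrays. It had 635, 267 and 178 in left mesenchyme, 350, 380 and 450 in right epithelium and 36.6, 27.3 and 50.6 in right mesenchyme. Left epithelium was thus 3.89 log2 above the mean of the other compartments, and the dimmest left epithelium array lay 1.53 log2 above the brightest other array. A second, dimmer SST1 probe set was a member as well, at 131, 139 and 102 in left epithelium and up to 97.9 elsewhere.

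FGF9 encodes a fibroblast growth factor that the mesothelium sends to the mesenchyme of the mouse lung. Its signals were 449, 439 and 369 in left epithelium, against 59.5, 48.1 and 30.9 in left mesenchyme, 162, 205 and 87.6 in right epithelium and 19.2, 18.3 and 48.8 in right mesenchyme, a difference of 2.54 log2. Every left epithelium array exceeded every right epithelium array, and the mesenchymal arrays were close to the floor. FGF18, a related ligand gene, had 243, 210 and 354 in left epithelium and 25.1 to 162 on the other 9 arrays, a difference of 1.37 log2. The receptor gene FGFR2 went the other way and was among the lower members with 2 probe sets, of which the brighter had 2532, 2619 and 2203 in left epithelium. That probe set had 3826, 3692 and 4309 in left mesenchyme, 3526, 4014 and 4237 in right epithelium and 6443, 5588 and 6060 in right mesenchyme. Of 28 measured genes of FGF and Notch signalling, 2 were higher and 1 was a lower member. Over all 9735 named genes that passed the filter, each by its brightest probe set, 2.15% were higher and 1.99% were lower members. The counts of this list and of those that follow also take each gene by its brightest probe set that passed the filter, and are given beside these shares. Dimmer probe sets of further list genes could be members too.

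Ligands and regulators of the TGF-beta family were also found. BMP7, a bone morphogenetic protein gene, had 961, 1073 and 1206 in left epithelium, against 352, 734 and 292 in left mesenchyme, 405, 579 and 807 in right epithelium and 348, 390 and 330 in right mesenchyme. A second BMP7 probe set was a member too. INHBB, which encodes a subunit of activin and inhibin, was dimmer, with 216, 230 and 283 in left epithelium and 23.9 to 130 on the other arrays. LTBP1 encodes a matrix protein that stores latent TGF-beta, and was read by 4 member probe sets, all higher. The brightest of them had 13804, 13966 and 14479 in left epithelium, against 10158, 9637 and 10772 in left mesenchyme, 6182, 7522 and 6922 in right epithelium and 5581, 4927 and 5984 in right mesenchyme. Its order was thus left epithelium, left mesenchyme, right epithelium and right mesenchyme. The arrays of both right compartments lay close together, but each right epithelium array was above each right mesenchyme array. BMPER, whose product binds BMPs outside the cell, had 575, 641 and 473 in left epithelium, below the 768 to 1690 of the other arrays, and the activin receptor gene ACVR2A was likewise a lower member. Of 39 measured genes of BMP and TGF-beta signalling, 3 were higher and 2 were lower members.

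Among adhesion genes, CDH20, which encodes a type II cadherin, had 697, 507 and 600 in left epithelium and 440, 432 and 400 in left mesenchyme. It had only 83.9, 175 and 71.3 in right epithelium and 71.6, 37.1 and 31.5 in right mesenchyme. Both left compartments lay far above both right ones, and left epithelium was set apart from left mesenchyme by 0.20 log2 between the nearest arrays. GJA1, the gene of the gap junction protein connexin 43, had 2637, 1994 and 1881 in left epithelium, 877, 807 and 651 in left mesenchyme, 1031, 1404 and 1409 in right epithelium and 519, 559 and 566 in right mesenchyme. EPCAM, an epithelial adhesion gene and the single higher member among 14 measured coelomic epithelium markers, was read by 2 member probe sets. The brighter had 6641, 7257 and 6704 in left epithelium and 4078 to 5952 on the other arrays. CDH11, a cadherin gene of mesenchyme, was a lower member with 2 probe sets, of which the brighter had 1040, 1570 and 1694 in left epithelium and 2453 to 4240 elsewhere. CTNNB1, the gene of beta-catenin, was the other lower member among 32 cadherin and junction genes, by only 0.17 log2, so that 2 of these genes were higher and 2 were lower members.

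Matrix genes lay on both sides. LAMA5, which encodes a laminin chain of epithelial basement membranes, had 2013, 2071 and 2063 in left epithelium, against 915, 881 and 984 in left mesenchyme, 1162, 1301 and 876 in right epithelium and 541, 570 and 371 in right mesenchyme. NPNT, whose product nephronectin is an integrin ligand of basement membranes, had 1148, 822 and 713 in left epithelium and 177 to 527 elsewhere. Collagen IV genes ran opposite to both. COL4A1 had 265, 367 and 255 in left epithelium, against 459, 396 and 587 in left mesenchyme, 483, 649 and 673 in right epithelium and 1017, 819 and 888 in right mesenchyme, and COL4A2 was lower with it by 0.93 log2. FREM1 and ITGB1, the gene of the beta-1 integrin chain, were the remaining lower members among 31 genes of basement membrane and integrins, which held 2 higher and 4 lower members. The proteoglycan genes SDC1 (syndecan 1, 0.86 log2), SPOCK3 (0.64 log2) and HMMR, the gene of a hyaluronan receptor that also serves the mitotic spindle (0.55 log2), were higher members among 29 genes. SDC1 had 1504, 1436 and 1322 in left epithelium and 450 to 1260 elsewhere. Of 39 collagens and matrix glycoproteins, 3 were lower members by their brightest probe sets, namely CYR61, COL9A3 and COL2A1, and none were higher ones. With every probe set counted, 6 genes of the whole list were lower members. SMOC2, a secreted matrix protein gene, had 2269, 2164 and 2567 in left epithelium, 1445, 1723 and 1379 in left mesenchyme, 929, 830 and 1080 in right epithelium and 550, 508 and 533 in right mesenchyme. NRP2, a co-receptor gene for semaphorins and VEGF, was read by 2 member probe sets. By their brightest probe sets it was the single higher member among 43 guidance genes, of which UNC5C and SEMA3G were lower members. With every probe set counted, 4 genes of the whole list were higher and 3 were lower members.

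Among named members that passed the filter on low values and lay above the floor on all left epithelium arrays, each gene by its brightest probe set, the remaining ones of the 12 largest differences on the higher side were mostly dim. CYGB, which encodes cytoglobin, was the bright exception, with 5507, 4545 and 4168 in left epithelium, 1754, 1478 and 1106 in left mesenchyme, 2745, 3524 and 3991 in right epithelium and 297, 1049 and 544 in right mesenchyme. The epithelia of both sides thus held most of it, and the nearest left and right epithelium arrays differed by only 0.06 log2. RLN3, a relaxin family hormone gene, had 135, 194 and 149 in left epithelium and 4.62 to 60.1 elsewhere. NKX3-2, a homeobox gene that left mesoderm expresses in the chick, had 151, 181 and 149 in left epithelium, 82.4, 95.7 and 98.2 in left mesenchyme, 42.8, 56.4 and 89.4 in right epithelium and 30.6, 6.44 and 27.5 in right mesenchyme. FAM129A, ADGRD1, SDK1, TMEM164 and OGG1 completed the 12, with left epithelium signals between 74.3 and 351 and differences of 1.44 to 1.55 log2. The 3 other tested probe sets of FAM129A (0.54 to 0.88 log2) and the 2 others of TMEM164 (0.28 to 0.44 log2) were not members. Members that were above the floor on all left epithelium arrays and at or below it on all 9 others numbered 7, all faint. The named ones did not pass the filter and so were not ranked among the 12, namely TIAM2 (24.9, 131 and 78.5, a difference of 1.85 log2), HSF5 (72.2, 58.5 and 29.3, a difference of 1.64 log2), NMUR2, SYTL2, ABCA4 and A2M.

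**Figure D1:**
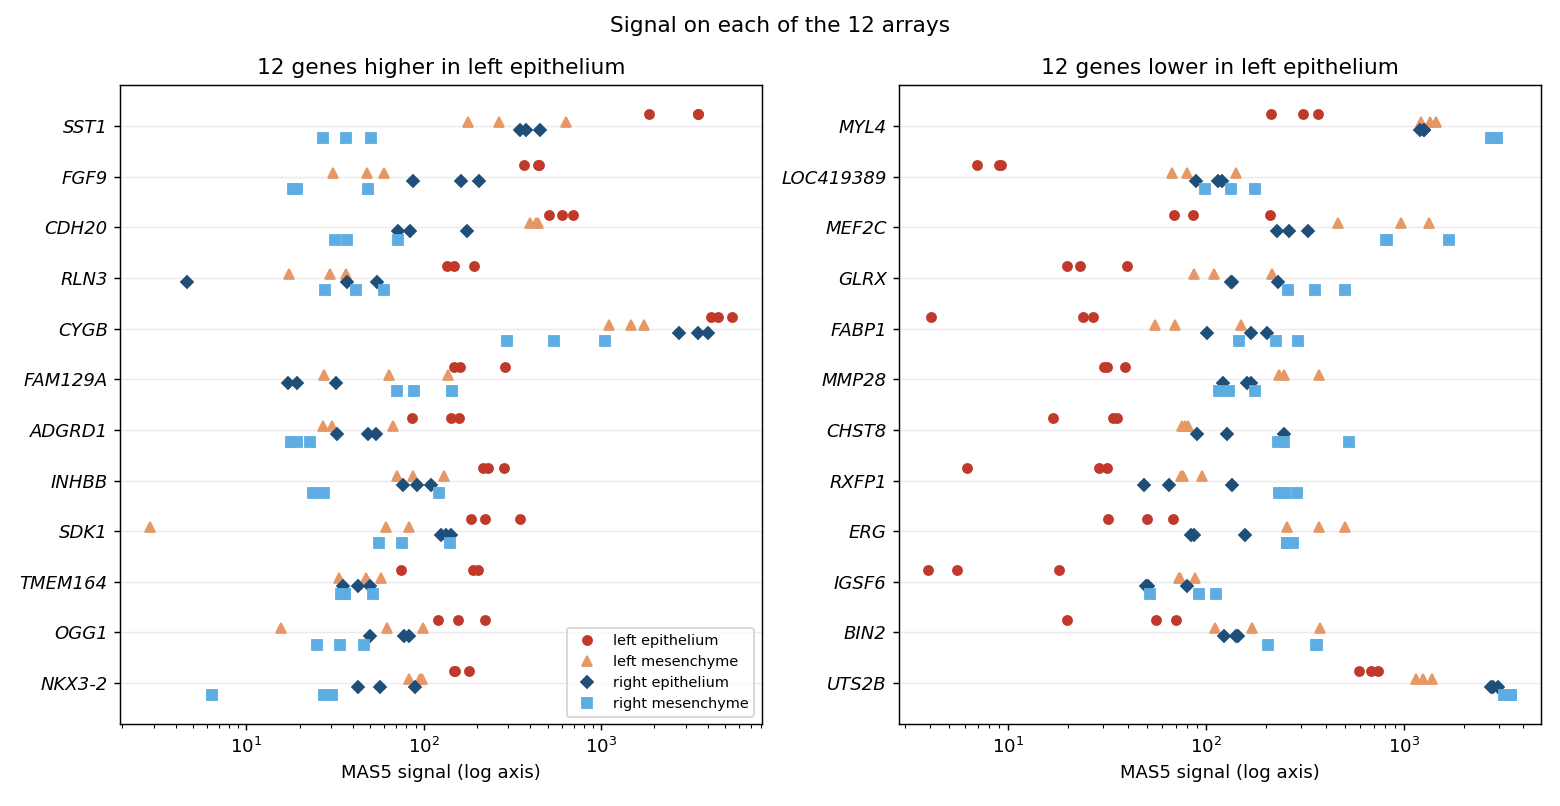
Signal of 24 genes on each of the 12 arrays, on a log axis, 1 point per array, with left epithelium as circles, left mesenchyme as triangles, right epithelium as diamonds and right mesenchyme as squares. Each gene is shown by its brightest member probe set among those that passed the filter and the floor. Of these, the left panel holds the 12 largest differences above all 9 other arrays, from SST1 at 3.89 log2 downwards, and the right panel the 12 below, from MYL4 at -2.48 log2, chosen for these values.

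MYL4, which encodes a myosin light chain of embryonic and atrial muscle, had 365, 308 and 211 in left epithelium, against 1444, 1344 and 1220 in left mesenchyme, 1194, 1260 and 1256 in right epithelium and 2949, 2903 and 2752 in right mesenchyme. The difference was -2.48 log2, and the brightest left epithelium array lay 1.67 log2 below the dimmest other array. MEF2C, a transcription factor gene of muscle, vessels and neural crest, was a lower member with 3 probe sets, of which a dimmer one had the largest lower difference of all members, -2.68 log2. The brightest had 68.7, 85.3 and 208 in left epithelium. That probe set had 958, 465 and 1337 in left mesenchyme, 325, 262 and 226 in right epithelium and 815, 812 and 1687 in right mesenchyme. Both epithelia were thus low, and left epithelium 3 came within 0.11 log2 of right epithelium 3. IRAG1, whose product restrains calcium release in smooth muscle, was lower by 1.59 log2, and KCNIP4, a potassium channel subunit gene, had 616, 483 and 437 in left epithelium and 666 to 2075 elsewhere.

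UTS2B, which encodes a urotensin-related peptide, had 738, 676 and 592 in left epithelium and 1386, 1249 and 1142 in left mesenchyme. It had 2807, 2740 and 2960 in right epithelium and 3181, 3454 and 3473 in right mesenchyme. The right compartments were close to each other and far above the left ones, with left epithelium the lowest. EDNRB, the endothelin receptor gene that enteric neural crest cells need, had 351, 315 and 345 in left epithelium, 770, 604 and 777 in left mesenchyme, 894, 787 and 1066 in right epithelium and 1573, 1019 and 1100 in right mesenchyme, and its second probe set was a member too. HTR2B, a serotonin receptor gene, had 171, 83.6 and 144 in left epithelium and 208 to 978 elsewhere. RXFP1, a relaxin receptor gene, was dim in left epithelium, at 28.7, 6.17 and 31.4, against 48.4 to 286 on the other arrays.

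Several transcription factor genes lay below. TBX18, a T-box gene of the right dorsal mesentery and of coelomic mesothelium, had 842, 362 and 623 in left epithelium, 997, 895 and 895 in left mesenchyme, 2076, 2353 and 2912 in right epithelium and 2764, 2866 and 2754 in right mesenchyme. Left epithelium 1 came close to the left mesenchyme arrays, and both right compartments were higher than both left ones. SNAI1, a driver of epithelial to mesenchymal transition that the chick expresses in right mesoderm, had 162, 177 and 99.7 in left epithelium. It had 681, 601 and 605 in left mesenchyme, 351, 262 and 254 in right epithelium and 486, 403 and 315 in right mesenchyme. ZEB2, another gene of that transition, had 908, 1160 and 872 in left epithelium and 1230 to 2906 elsewhere. TCF21, a factor of coelomic epithelium and its mesenchymal progeny, had 231, 115 and 125 in left epithelium and 325 to 741 elsewhere, and was thus the 1 lower member among the 14 coelomic epithelium markers. Of 14 measured mesenchyme markers, 3 were lower members (ZEB2, PDGFRB and TWIST1) and 1 was a higher one (NKX3-2). Of 36 mesoderm patterning factors, 3 were lower members by their brightest probe sets (TCF21, FOXC1 and GATA5) and none were higher ones. With every probe set counted, 5 genes of the whole list were lower and 1 was a higher member. Of 7 left-right determinants, SNAI1 and ACVR2A were lower and NKX3-2 a higher member.

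Several cytoskeletal genes were lower by small steps at high signal. The intermediate filament gene VIM had 17726, 17296 and 16129 in left epithelium, against 19158 to 27228 on the other arrays, a difference of -0.42 log2. CALD1 (caldesmon, -0.36 log2), ZYX (zyxin, -0.67 log2), MYH9 (-0.31 log2), TPM1 (-0.31 log2) and RAC1 (-0.26 log2) were the other lower members among 36 genes of actomyosin and motility, which held 6 lower and 0 higher ones. The median difference over those 36 genes was -0.13 log2, beside 0.01 log2 over the 9735 named genes passing the filter. Of the retinoid genes LRAT, whose enzyme esterifies retinol, had 61.2, 52.8 and 66.1 in left epithelium, 89.5, 66.3 and 76.4 in left mesenchyme, 336, 297 and 425 in right epithelium and 192, 226 and 170 in right mesenchyme. Right epithelium was its highest and left epithelium its lowest compartment, and DHRS3 was the other lower member among 14 retinoic acid pathway genes.

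GLRX, FABP1, MMP28, CHST8, BIN2, IGSF6 and LOC419389, the last a locus without a gene name here, were further genes among the 12 largest lower differences chosen in the same way, between -1.84 and -2.36 log2, with left epithelium signals of 3.94 to 70.1. IGSF6 and LOC419389 were above the floor on all 9 other arrays and at or below it on all 3 of left epithelium, as were 2 more members. Of the 12 genes, ERG, RXFP1 and IGSF6 each had 1 other tested probe set. None of these was a member, at -1.56, -1.51 and -0.85 log2. For LOC419389 the signals were 9.20, 6.94 and 9 in left epithelium, against 79.5, 141 and 66.9 in left mesenchyme, 119, 88.8 and 114 in right epithelium and 133, 176 and 98.6 in right mesenchyme, and the gap of 1.72 log2 to the nearest other array was the widest of all lower members.

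Endothelial markers were low in left epithelium. Of 24 such genes on the array 20 passed the filter, and by their brightest probe sets 5 of these were lower and 0 were higher members, while the median difference was -0.95 log2. ERG, an endothelial transcription factor gene, had 67.5, 49.9 and 31.9 in left epithelium, 373, 255 and 500 in left mesenchyme, 86.2, 83.9 and 156 in right epithelium and 256, 273 and 256 in right mesenchyme. SOX7 had 68.2, 82.9 and 76.7 in left epithelium, 816, 699 and 773 in left mesenchyme, 101, 94.6 and 86.0 in right epithelium and 191, 153 and 210 in right mesenchyme. For both genes the right epithelium arrays lay between those of left epithelium and those of both mesenchymes. FLT1, a VEGF receptor gene read by 2 member probe sets, TAL1 and LYVE1 were the other lower members. The summed signal of the 24 markers was 2748 to 4316 in left epithelium, 14112 to 15334 in left mesenchyme, 2729 to 3653 in right epithelium and 6322 to 7202 in right mesenchyme, so the sums of the 2 epithelia overlapped. FLT4 and SOX17 ran differently, with higher mean signals in left than in right epithelium, at 465 against 191 and 269 against 76.3, and a dimmer probe set of FLT4 was a higher member. With quantile normalization 3 of the 20 genes were lower members. The part of vessel cells in the membership of other genes, such as MEF2C, was not tested.

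The list with the most higher members was that of the cell cycle. In 32 of 37 measured genes left epithelium lay above the average of the other 3 compartment means, with a median difference of 0.43 log2. The same held for 5037 of all 9735 named genes that passed the filter. Of the 37 genes 13 were higher and 0 were lower members. The 13 were TTK, UHRF1, AURKB, TYMS, TOP2A, CENPF, PLK1, CDK1, MCM2, GMNN, CENPE, RRM2 and TPX2, which serve DNA replication, its licensing, and mitosis. TTK, a kinase gene of the spindle checkpoint, had 1407, 1436 and 1378 in left epithelium, 961, 797 and 783 in left mesenchyme, 880, 587 and 889 in right epithelium and 666, 634 and 797 in right mesenchyme. AURKB, a mitotic kinase gene, had 5439, 4907 and 5194 in left epithelium, 4572, 3131 and 3530 in left mesenchyme, 4418, 3254 and 2982 in right epithelium and 2377, 2086 and 3103 in right mesenchyme. TYMS, whose enzyme makes thymidylate for DNA synthesis, had 2095, 2328 and 2504 in left epithelium, 1876, 1914 and 1575 in left mesenchyme, 1740, 1492 and 1274 in right epithelium and 1124, 1038 and 1190 in right mesenchyme. In all 3 genes left epithelium was highest and right mesenchyme lowest by the mean, with left mesenchyme and right epithelium overlapping between them. Centred on each gene's own mean over the arrays, the median of the 37 genes was 0.30 to 0.37 log2 on left epithelium arrays, -0.02 to 0.07 on left mesenchyme, -0.01 to 0.04 on right epithelium and -0.49 to -0.24 on right mesenchyme arrays. The number of higher members in this list was 13 to 18 when single arrays were left out or the scaling was changed. Outside the list, BIRC5, a mitotic and survival gene, was the higher member among 25 apoptosis genes, and MYBL2 sat at the edge of the rule.

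**Figure D2:**
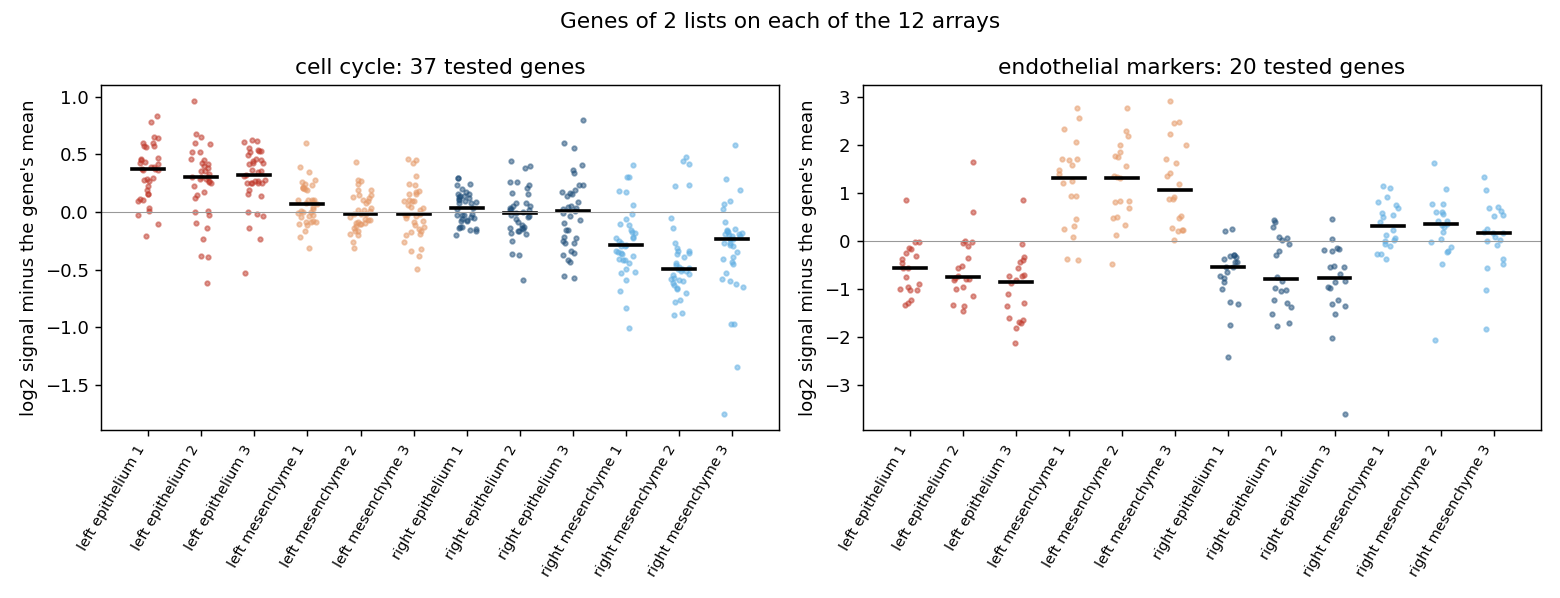
Log2(signal + 16) of each gene minus that gene's mean over the 12 arrays, 1 point per gene and array, with a bar at the median, for 37 cell cycle genes and 20 endothelial markers that passed the filter. Cell cycle medians lie at 0.30 to 0.37 on the left epithelium arrays and at -0.49 to -0.24 on right mesenchyme arrays, while endothelial medians are highest, 1.05 to 1.32, on left mesenchyme arrays and similar in both epithelia.

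The remaining lists had few members. Germ cell markers had 1 higher member of 8, DAZL, an RNA-binding protein gene of germ cells. It had 4890, 5329 and 5450 in left epithelium and 2772 to 4675 elsewhere. In all 8 markers left epithelium lay above the average of the other 3 compartment means. The same held for 5037 of all 9735 named genes that passed the filter. The summed signal of 10 germ cell markers was 8165 to 9680 in left epithelium and 7402 to 7993 in left mesenchyme. It was 5686 to 6916 in right epithelium and 4788 to 5552 in right mesenchyme. The HOX list of 21 had HOXB7 as a higher and HOXA9 as a lower member, and Wnt signalling had 1 lower member of 42, TCF7L2. PFKP was the higher member of 25 glycolysis and hypoxia genes, TNFRSF1B the lower member of 25 apoptosis genes and GATA5 that of 3 endoderm markers. TPM1 was the lower member of 6 muscle markers, EDNRB that of 8 neural crest and neuron markers, and TBX18 that of 3 T-box factors. Of 24 neuropeptide and hormone genes SST1 was the higher and EDNRB the lower member by their brightest probe sets. With every probe set counted, 1 gene of the whole list was a higher and 5 were lower members. RLN3 and UTS2B, members given above, were not on this list. Blood cell markers (9 genes, median -0.92 log2), hedgehog signalling (9), ion channels and transporters (52), immediate early and stress genes (17), liver markers (6) and gonad, adrenal and nephros markers (6) had no member among the brightest probe sets of their genes. For the blood cell markers this rested on left epithelium 1, without which 6 of the 9 were lower members. Centred on each gene's mean, their median was 0.30 log2 on left epithelium 1, against -1.07 and -1.27 on left epithelium 2 and 3. Over all 9735 named genes that passed the filter, each by its brightest probe set, 209 were higher (2.15%) and 194 were lower members (1.99%).

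**Figure D3:**
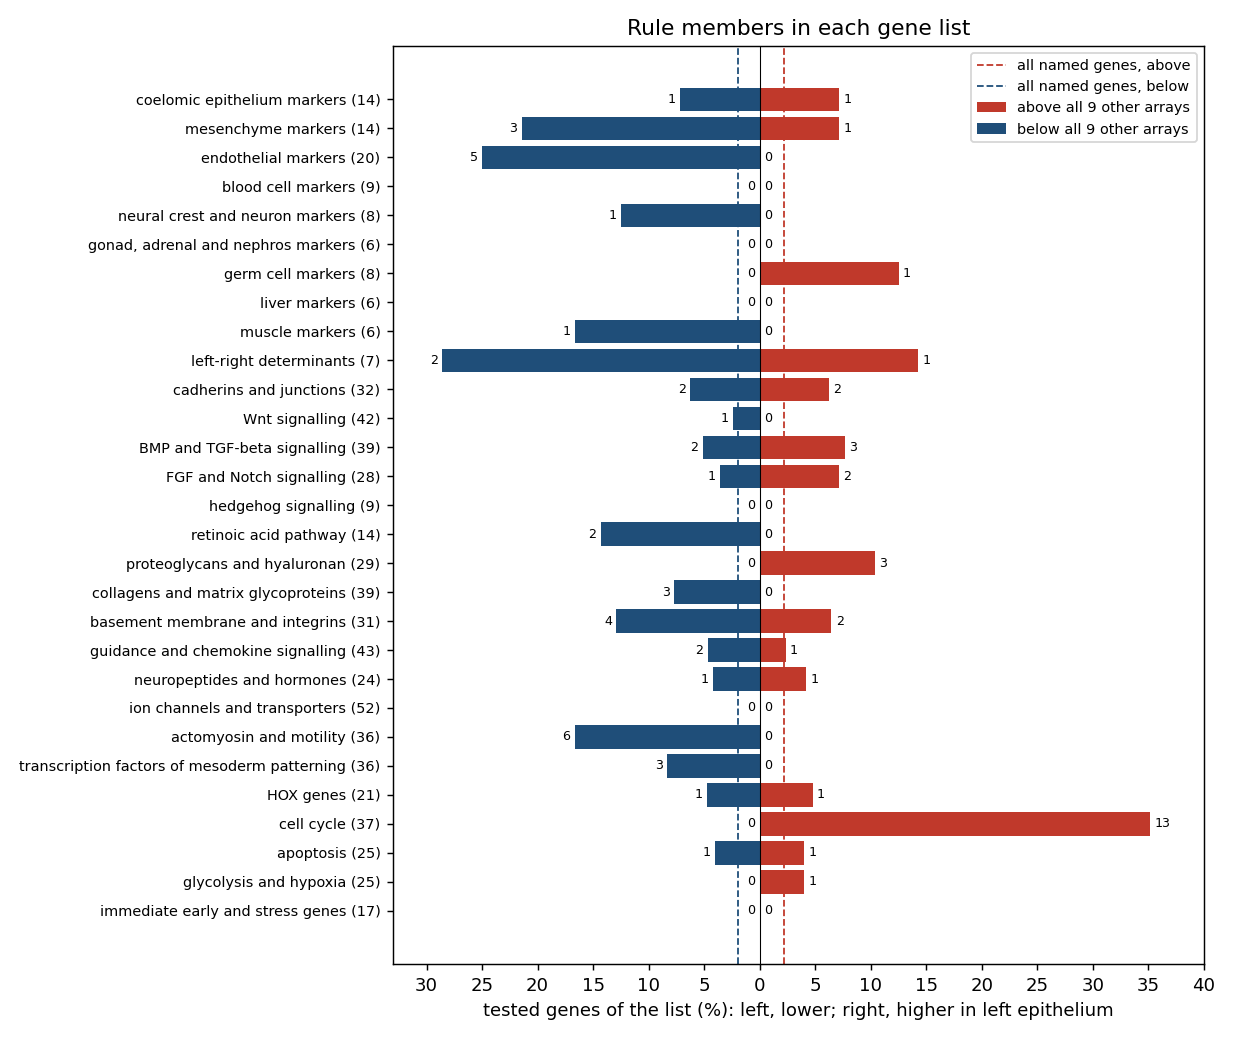
Share of the measured genes of each list that were members, with the number of members beside each bar and the number of measured genes in parentheses. Bars to the right are genes above all 9 other arrays, bars to the left genes below them, and the dashed lines mark 2.15% and 1.99% over all named genes. The longest bar to the right is that of the cell cycle, with 13 of 37 genes.

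The rule fixes no order among the other 3 compartments. Their differences were tested over all probe sets that passed the filter, on the 9 arrays that remain without left epithelium. These values had served the rule as a common bound, and the filter used all 12 arrays, so the choice of members was not independent of them. The shares called among members are therefore set beside those of all tested probe sets as a description. The effect of that choice on the shares was not tested. The estimates, standard errors and adjusted p of single members carry the same limit, since the rule bounded the same 9 arrays. A higher member was most often second highest, by its mean signal, in left mesenchyme, with 226 of 427 (52.9%), followed by right epithelium with 148 (34.7%) and right mesenchyme with 53 (12.4%). Over all tested probe sets the highest of these 3 means was in left mesenchyme for 35.2%, in right epithelium for 32.0% and in right mesenchyme for 32.7%. For the lower members the lowest of the 3 means was in left mesenchyme for 245 of 532 (46.1%), in right epithelium for 226 (42.5%) and in right mesenchyme for 61 (11.5%), beside 32.2%, 36.6% and 31.2% of all tested probe sets. Right mesenchyme, which shares neither side nor layer with left epithelium, was thus the compartment that came nearest to it least often, in both directions. The members counted here include 56 higher and 139 lower ones below the filter, unlike the tested probe sets beside them.

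Left mesenchyme was compared with right mesenchyme to ask whether the members also differed between the sides in the tissue under the epithelium. With limma and Benjamini-Hochberg adjustment over 23063 probe sets, 32 of the 371 higher members that passed the filter were higher in left than in right mesenchyme (8.63%), beside 0.885% of all tested probe sets, and 0 were lower (2 at an unadjusted p under 0.05, where 117 were higher). Of the 393 lower members 48 were lower in left mesenchyme (12.2%), beside 1.14% of all, and 2 were higher, SOX7 and 1 without a symbol. The median change was 0.25 log2 for the higher and -0.27 log2 for the lower members, beside 0.00 for all tested probe sets, and 82.2% and 14.5% of them lay above 0, beside 50.3% of all. The counts rest on few arrays. Without left mesenchyme 2 or 3, or right mesenchyme 1, 2 or 3, the 32 became 14, 17, 18, 16 and 20, and the 48 became 26, 27, 26, 21 and 27, and without left mesenchyme 1 the 32 became 20. Without an intensity trend in the variance they were 5 and 7.

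CDH20 rose in left against right mesenchyme by 2.86 ± 0.36 log2 (limma estimate ± SE, adjusted p = 0.00044), SST1 by 2.63 ± 0.39 (adjusted p = 0.0018) and SMOC2 by 1.48 ± 0.18 (adjusted p = 0.00036). LIX1, a gene of limb and gut mesenchyme with 418, 308 and 375 in left epithelium, rose by 1.81 ± 0.35 (adjusted p = 0.011), SYPL1, which encodes a vesicle membrane protein, by 1.49 ± 0.27 (adjusted p = 0.0082) and NRP2 by 1.43 ± 0.25 (adjusted p = 0.006). All 4 LTBP1 probe sets rose, by 0.85 to 1.05 log2, with adjusted p between 0.00017 and 0.0038. SDC1 (0.93 log2), LAMA5 (0.91 log2), SPOCK3 (0.86 log2), TYMS (0.67 log2) and DAZL (0.52 log2) also rose, and CYGB rose by 1.33 ± 0.29 (adjusted p = 0.024), whereas FGF9 differed by 0.51 ± 0.44 (adjusted p = 0.72). The genes that rose were therefore higher in left than in right mesenchyme by the test, and highest in left epithelium by the rule. The test did not compare left mesenchyme with right epithelium. The means in left mesenchyme and right epithelium were 1446 and 3420 for CYGB, but 424 and 110 for CDH20. CDH20, SMOC2 and the LTBP1 probe sets kept their calls without any single array, as did SST1. The call ended for TYMS (adjusted p up to 0.27, without left mesenchyme 2), LAMA5 (0.20) and SDC1 (0.14), both without left mesenchyme 3, and for DAZL (0.19), CYGB (0.16) and SPOCK3 (0.084), each without right mesenchyme 1. Without the whole of experiment 1 the CYGB estimate was 0.75 log2 (adjusted p = 0.28). The call also ended for LIX1 (0.088, without left mesenchyme 2), SYPL1 (0.084, without left mesenchyme 3) and NRP2 (0.059, without left mesenchyme 1).

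TBX18 fell in left against right mesenchyme by 1.57 ± 0.15 log2 (adjusted p = 3.3e-05), UTS2B by 1.41 ± 0.13 (adjusted p = 2.5e-05) and MYL4 by 1.10 ± 0.14 (adjusted p = 0.00044). CHST8, whose enzyme sulfates sugars of hormones, fell by 1.80 ± 0.34 (adjusted p = 0.011), RXFP1 by 1.48 ± 0.35 (adjusted p = 0.046), GLRX, a glutaredoxin gene, by 1.38 ± 0.33 (adjusted p = 0.045) and IRAG1 by 1.34 ± 0.25 (adjusted p = 0.01). FGFR2 fell with both probe sets, by 0.61 and 0.99 log2, COL4A1 by 0.91 and VIM by 0.36. SOX7 was the exception, low in left epithelium but 1.96 ± 0.27 log2 higher in left than in right mesenchyme (adjusted p = 0.00079). With SOX7 counted, 7 of the 20 endothelial markers rose and 0 fell in left against right mesenchyme by limma (2 fell at an unadjusted p under 0.05), with a median of 1.20 log2. Of all 9735 named genes 1.16% rose and 1.44% fell in that comparison, with a median of 0.01 log2. ERG, SNAI1 and TAL1, which also had their highest mean in left mesenchyme, did not pass (0.45, 0.65 and 0.80 log2). TBX18, UTS2B, MYL4 and SOX7 kept their calls without any single array. The call ended for RXFP1 (adjusted p up to 0.29) and GLRX (0.21), both without left mesenchyme 2, for COL4A1 (0.28), CHST8 (0.11) and the brighter FGFR2 probe set (0.097), each without right mesenchyme 1, and for VIM (0.15) and IRAG1 (0.11), both without right mesenchyme 2.

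Right epithelium was compared with right mesenchyme, on the same arrays of right mesenchyme, to ask whether the members also differed between the layers on the other side. Of the 371 higher members 21 were higher in right epithelium (5.66%), beside 0.811% of all tested probe sets, and 0 were lower by limma (5 at an unadjusted p under 0.05, where 97 were higher). Of the 393 lower members 43 were lower (10.9%), beside 1.06% of all, and 0 were higher by limma (1 at an unadjusted p under 0.05, where 127 were lower). The median change was 0.19 log2 for the higher and -0.25 log2 for the lower members, beside -0.01 for all. Without right epithelium 1, 2 or 3 the 21 became 7, 6 and 12, and without right mesenchyme 1, 2 or 3 they became 9, 6 and 10. The 43 became 22 and 18 without right epithelium 1 or 2, and 12, 11 and 20 without right mesenchyme 1, 2 or 3. Without an intensity trend they were 1 and 4.

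SST1 rose in right epithelium against right mesenchyme by 2.93 ± 0.39 log2 (adjusted p = 0.00082), CYGB by 2.57 ± 0.29 (adjusted p = 0.00018) and FGF9 by 1.90 ± 0.44 (adjusted p = 0.043). NRP2 rose by 1.32 ± 0.25 (adjusted p = 0.011), GJA1 by 1.19 ± 0.20 (adjusted p = 0.0048), LAMA5 by 1.15 ± 0.20 (adjusted p = 0.0062) and SDC1 by 1.08 ± 0.19 (adjusted p = 0.0072). Of the cell cycle list RRM2 (0.49 log2) and PLK1 (0.53 log2) were among 5 genes that rose, with a list median of 0.29 log2, and 0 of the 37 fell by limma (0 at an unadjusted p under 0.05), while 0.945% of all named genes rose and 1.48% fell. In left against right mesenchyme 3 of the 37 rose and 1 fell, with a median of 0.37 log2. Of the 20 endothelial markers 7 fell and 0 rose in right epithelium against right mesenchyme by limma. At an unadjusted p under 0.05, 13 fell and 0 rose. Their median was -1.04 log2, beside -0.01 log2 over all named genes. In right epithelium against right mesenchyme SMOC2 rose by 0.81 ± 0.18 (adjusted p = 0.036), while CDH20 differed by 0.97 ± 0.36 (adjusted p = 0.25). Among the lower members MEF2C fell by 1.89 ± 0.29 (adjusted p = 0.0032), HTR2B by 1.57 ± 0.24 (adjusted p = 0.0033), RXFP1 by 1.56 ± 0.35 (adjusted p = 0.037), KCNIP4 by 1.46 ± 0.16 (adjusted p = 0.00018) and LYVE1, a receptor gene of lymphatic vessels and macrophages, by 1.35 ± 0.31 (adjusted p = 0.037). C7, a complement component gene, fell by 1.29 ± 0.20 (adjusted p = 0.0035), MYL4 by 1.20 ± 0.14 (adjusted p = 0.00027), BMPER by 0.92 and ZEB2 by 0.89. UTS2B (-0.25 ± 0.13, adjusted p = 0.47) and TBX18 (-0.20 ± 0.15, adjusted p = 0.64) did not pass. SST1, CYGB, GJA1, MEF2C, HTR2B, KCNIP4 and MYL4 kept their calls without any single array. The call ended for FGF9 (adjusted p up to 0.23), LYVE1 (0.22), RRM2 (0.12), NRP2 (0.089), BMPER (0.073) and ZEB2 (0.069), each without right mesenchyme 2, and for PLK1 (0.21) and RXFP1 (0.17), both without right mesenchyme 3. It also ended for SDC1 (0.070, without right epithelium 1), LAMA5 (0.052, without right epithelium 2) and C7 (0.0501, without right mesenchyme 1). In left against right mesenchyme HTR2B was called as well (-1.22 ± 0.24, adjusted p = 0.016). So were KCNIP4 (-0.89 ± 0.16, adjusted p = 0.0083) and C7 (-1.27 ± 0.20, adjusted p = 0.0032). How these calls and that of SMOC2 in right epithelium hold without single arrays is not given here.

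**Figure D4:**
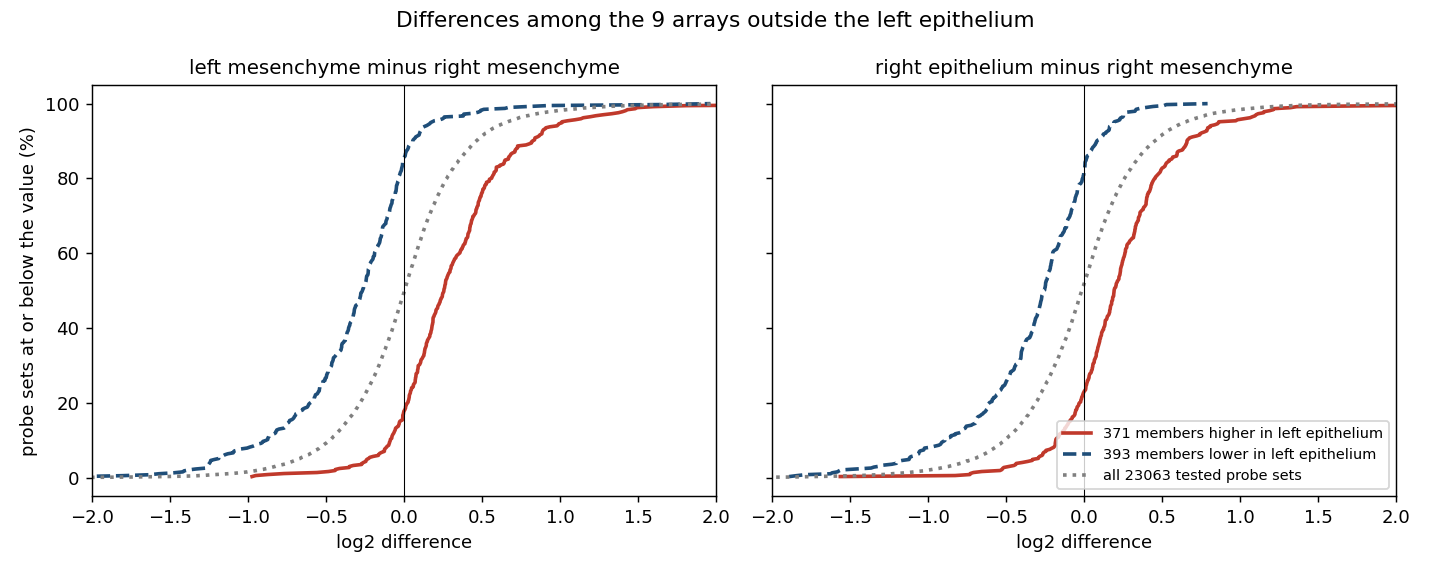
Cumulative share of probe sets (%) at or below each log2 difference between 2 of the other compartments, left mesenchyme minus right mesenchyme in the left panel and right epithelium minus right mesenchyme in the right panel. The solid curve, for the 371 higher members that passed the filter, lies to the right of the dotted curve of all 23063 tested probe sets, and the dashed curve, for the 393 lower members, to its left, with medians of 0.25 and -0.27 log2 in the left panel and 0.19 and -0.25 log2 in the right.

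Both comparisons use the right mesenchyme arrays, so their values are given side by side with no count of agreement. For CDH20 the change in left against right mesenchyme was 2.86 ± 0.36 log2 and that in right epithelium against right mesenchyme 0.97 ± 0.36. For LIX1 they were 1.81 ± 0.35 and 0.60 ± 0.35, for SMOC2 1.48 ± 0.18 and 0.81 ± 0.18 and for SYPL1 1.49 ± 0.27 and 0.10 ± 0.27. Among the lower members they were -1.57 ± 0.15 and -0.20 ± 0.15 for TBX18 and -1.41 ± 0.13 and -0.25 ± 0.13 for UTS2B. In these 6 genes the estimate between the sides was the larger. It was the smaller in CYGB (1.33 ± 0.29 and 2.57 ± 0.29), FGF9 (0.51 ± 0.44 and 1.90 ± 0.44), GJA1 (0.48 ± 0.20 and 1.19 ± 0.20) and MEF2C (-0.30 ± 0.29 and -1.89 ± 0.29). Other members had similar estimates that both passed, such as SST1 (2.63 ± 0.39 and 2.93 ± 0.39) and NRP2 (1.43 ± 0.25 and 1.32 ± 0.25). Among the lower members these included MYL4 (-1.10 ± 0.14 and -1.20 ± 0.14), RXFP1 (-1.48 ± 0.35 and -1.56 ± 0.35) and C7 (-1.27 ± 0.20 and -1.29 ± 0.20). Both estimates also passed in SMOC2 and CYGB. Neither estimate passed in BMP7 (0.24 ± 0.30 and 0.67 ± 0.30), NPNT (0.57 ± 0.30 and 0.23 ± 0.30), TTK (0.27 ± 0.19 and 0.15 ± 0.19), MMP28 (0.93 ± 0.31 and 0.09 ± 0.31) and RLN3 (-0.42 ± 0.50 and -0.44 ± 0.50). Whether the changes of a gene in the 2 comparisons differ was not tested.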

How the data were processed

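Expression was read from a single deposited table of Affymetrix intensity values on a linear scale. The authors made them with MAS5 in GCOS, as the submitters' processing notes name without versions, and had scaled every array to a common level (means of 500.11 to 500.12 after trimming 2% at each end). Precision is limited by the number of arrays. The platform annotation gave a single symbol to 27166 of 37693 chicken probe sets, more than 1 to 177 and no symbol to 10350, and only those with a single symbol were named. Different probe sets of a gene were kept apart, and a list counts each gene by its brightest tested probe set.

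A value of 16 was added before log2, which understates the change of dim genes. Controls were left out, and 23063 probe sets (23058 of them chicken) with a mean log2 value above the 40th percentile entered the tests. limma 3.58.1 in R 4.3.3 fitted the 9 arrays outside the left epithelium, with experiment as a fixed block and an intensity trend. Residual degrees of freedom were 4 and prior ones 10.5. Tests were two-sided, adjusted by Benjamini-Hochberg over the 23063, with a threshold of 0.05. The replicate number was read as the experiment that the series text describes, which gave all 4 compartments. Deviations from the compartment means of the 9 same-number pairs of arrays correlated by -0.02 to 0.08. The fit was tested on simulated data with independent noise, no experiment effect and no choice of members. That test therefore does not bear on the calls among members.

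The members and the 31 gene lists (1051 genes, 898 on the array) were chosen with earlier results of these data known, and the lists were written from general knowledge. Named were the 12 largest differences in each direction among members with a symbol that passed the filter and lay above the floor on all arrays of the brighter side, each gene by its brightest such probe set, list members, the 3 probe sets on each side of the threshold, the 6 largest called members per direction and test, and members above the floor on 1 side only. FLT4, SOX17 and the second probe sets of named genes were named after their values were seen. Alternatives were quantile normalization, median centring, other pseudocounts, no filter, no trend, array weights, all 12 arrays, no block and leaving out arrays.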

Additional observations from a re-analysis of the deposited data

How the results depend on the processing

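Quantile normalization gave 489 higher and 470 lower members, of which 386 and 411 were members as reported, and median centring 439 and 486 (363 and 426). Asking for a gap of 0.5 log2 left 20 and 47. Without both right mesenchyme 3 and right epithelium 3, an alternative added after the data were seen, 833 lower members were found. Leaving out 1 array gave 469 to 1061 higher and 584 to 1445 lower members, since fewer arrays are easier to clear. In left against right mesenchyme, leaving out 1 array or experiment gave 13 to 45 calls among higher members and 20 to 61 among lower members. Among all tested probe sets it gave 69 to 279 higher and 95 to 337 lower ones. In right epithelium against right mesenchyme the same counts, in that order, were 4 to 17, 7 to 43, 45 to 168 and 61 to 226. Without an intensity trend the calls were 5, 7, 51 and 44 in the first comparison and 1, 4, 30 and 51 in the second. With array weights the first comparison had 51 among higher members, and 341 higher and 413 lower among all. With no filter the second had 12 among higher members and 115 higher among all. The fit with no replicate block had 31 and 49 in the first comparison and 18 and 41 in the second, and ended the calls of GLRX (adjusted p = 0.059) and LYVE1 (0.058). Without right mesenchyme 3 and right epithelium 3 the second comparison had 14 among higher members. Endothelial lower members numbered 3 under quantile normalization, and 5 to 6 when arrays were left out. The sizes moved too. With a pseudocount of 1 or 64, 20 of the 48 left epithelium differences recomputed for the 24 plotted genes moved by more than 1 SD, and 28 by less. Without experiment 1 CYGB in the mesenchyme was 0.75 log2, and with a pseudocount of 64 FGF9 in right epithelium was 1.19 log2. Leaving out arrays or experiments gave 0.75 to 1.75 log2 for CYGB and 1.51 to 2.51 for FGF9. No named change reversed its sign; of the tests of named genes under alternatives 817 kept their call and 317 did not, and CDH20, SMOC2, MYL4, TBX18, UTS2B and SOX7 in the mesenchyme kept it under each alternative run. Low signal limits the 56 higher and 139 lower members that lay below the filter on low values.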
